A study of Mus musculus with 10 samples.

Results

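Metallothioneins and 3 further genes of zinc handling were followed across mammary fibroblasts and tumor cells cultured in gels. The 5 genes, of 55486 in the count table, were Mt1 and Mt2 (metallothioneins), Mtf1 (the zinc-sensing transcription factor), Slc30a1 (a zinc exporter) and Slc39a10 (a zinc importer). They had been selected on their levels in these same libraries, so their values are given below as a description, with no test and no call.

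Normal fibroblasts (NFs) had been sorted from mammary tissue of mTmG mice aged 8 weeks into CD26- and CD26+ cells, after which CD26+ NFs received an adenovirus carrying Cre. The mTmG reporter makes cells red (Tomato) until Cre turns them green (GFP), so the subsets could be mixed in equal parts and parted again by color. Any CD26+ NFs that Cre did not turn green would be sorted as CD26-, and their share was not estimated. Tumor cells were the lines 13-MCB-17 and 10-SJK-221, both with the genotype WapCre;Cdh1F/F;PtenF/F, which models invasive lobular breast carcinoma by letting a milk protein promoter drive Cre in mammary epithelium. Gel 1 held NFs alone, gels 2 and 3 held 13-MCB-17 or 10-SJK-221 cells alone, and gels 4 and 5 held NFs with 13-MCB-17 or 10-SJK-221 cells, respectively. All gels were kept for 7 days, dissolved and sorted, which gave 10 libraries: 3 of CD26- NFs, 3 of CD26+ NFs and 4 of tumor cells. NFs are usually pooled from several mice per sort in this study, and each tumor line stands for 1 tumor. Because no CD26- NF received virus, virus exposure and subset cannot be told apart. Culture with tumor cells and the single gel of NFs alone cannot be told apart either.

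Metallothioneins are small proteins rich in cysteine that bind zinc and copper. Mtf1 is activated by zinc, binds short metal response elements in promoters, and is known to drive Mt1, Mt2 and Slc30a1. Glucocorticoids and oxidative stress are also known to raise Mt1 and Mt2. Zinc leaves the cytosol through the Slc30a (ZnT) family and enters it through the Slc39a (ZIP) family.

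Libraries held 14142334 to 18408940 counts, and 3 counts, the most that an observed 0 allows, amounted to between 0.163 and 0.212 CPM (a gene's count per 1000000 counts of its library). All 8 fibroblast markers were detected in each NF library and all 8 epithelial markers in each tumor library. Dpp4, which encodes CD26, had 4, 12 and 4 counts in CD26+ NFs of gels 1, 4 and 5 and 0, 0 and 1 in CD26- NFs, so after culture the RNA that names the subsets was near the floor. From epithelial markers, tumor cell RNA made up an estimated 1.94% to 4.63% of co-cultured NF libraries. Fibroblast RNA made up 0.109% and 0.130% of co-cultured tumor libraries. In such bulk samples, fewer cells of a type and less RNA per cell cannot be told apart.

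Mt2 and Mt1 are neighbors on the plus strand of chromosome 8 (GRCm38). Mt2 (ENSMUSG00000031762) spans chr8:94172664-94173568 and Mt1 (ENSMUSG00000031765) spans chr8:94179082-94180327, with 5514 bases between the end of Mt2 and the start of Mt1. Mt3 and Mt4, 2 further metallothionein genes, lie upstream in the same cluster. No stretch of 54 bases, the read length stated for NovaSeq runs, was common to an annotated transcript of Mt1 or Mt2 and that of any other gene. The promoters of Mt1 and Mt2 are shown because metal response elements there are the known point of contact with Mtf1. Each line gives the 250 bases before the RefSeq start on GRCm38.p6, plus strand, with matches to the element's core (TGCACNC or TGCGCNC, on either strand) in capitals. The Mt2 window is chr8:94172368-94172617 and the Mt1 window is chr8:94178839-94179088.
Mt2: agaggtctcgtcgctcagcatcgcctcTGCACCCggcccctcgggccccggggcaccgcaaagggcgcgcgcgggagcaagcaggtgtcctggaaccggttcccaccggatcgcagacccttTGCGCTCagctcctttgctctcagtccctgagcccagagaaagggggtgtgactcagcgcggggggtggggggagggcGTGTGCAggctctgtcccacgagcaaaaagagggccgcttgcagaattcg
Mt1: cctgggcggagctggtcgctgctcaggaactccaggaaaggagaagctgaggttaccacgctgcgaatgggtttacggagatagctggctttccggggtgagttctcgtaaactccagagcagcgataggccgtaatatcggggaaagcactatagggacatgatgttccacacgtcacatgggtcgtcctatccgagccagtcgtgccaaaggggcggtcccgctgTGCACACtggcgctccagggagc

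The Mt2 window held 3 matches, and the Mt1 window held 1, with no overlap between matches. These counts depend on the start used. Further annotated transcripts start downstream of the windows, at chr8:94179211 and chr8:94179241 for Mt1 and at chr8:94172860 for Mt2. The windows before those starts were not counted. Of 32851 promoters of the same length, 21.4% held at least 1 match and 1.26% held at least 3. The Slc30a1 window held 1 match, and neither the Mtf1 window nor either Slc39a10 window held one. With the 50 bases after the start added, which was decided after seeing the data, the count was 4 for Mt2, 3 for Mt1 and 2 for Slc30a1, and 1.97% of promoters held at least 3. A match is a run of letters and not a measured binding site.

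The level of Mt1 separated the fibroblast subsets in every gel. CD26- NFs had 84.1 CPM of Mt1 alone (gel 1), and 214 and 170 CPM with tumor cells (gels 4 and 5). CD26+ NFs had 1073 CPM alone, and 2770 and 3644 CPM with tumor cells. Every CD26+ library thus lay above every CD26- library, and by CPM Mt1 ranked 76th, 28th and 18th among all genes in CD26+ NFs of gels 1, 4 and 5, against 2244th, 756th and 968th in CD26- NFs. Within a gel, where both subsets had shared medium and time, Mt1 was 12.8-fold, 12.9-fold and 21.4-fold higher in CD26+ NFs (gels 1, 4 and 5). The fitted log2 difference over 3 gels was 3.78 (SE 0.188).

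Mt2 was also higher in CD26+ NFs of each gel, by a smaller factor. CD26- NFs had 74.2 CPM of Mt2 alone and 284 and 246 CPM in gels 4 and 5. CD26+ NFs had 215 CPM alone and 419 and 508 CPM in gels 4 and 5. The CD26+ library of gel 1 lay below both co-cultured CD26- libraries, so the subsets overlapped when gels were disregarded. The within-gel fold was 2.90, 1.48 and 2.06, and the fitted log2 difference was 0.89 (SE 0.175).

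**Figure D1:**
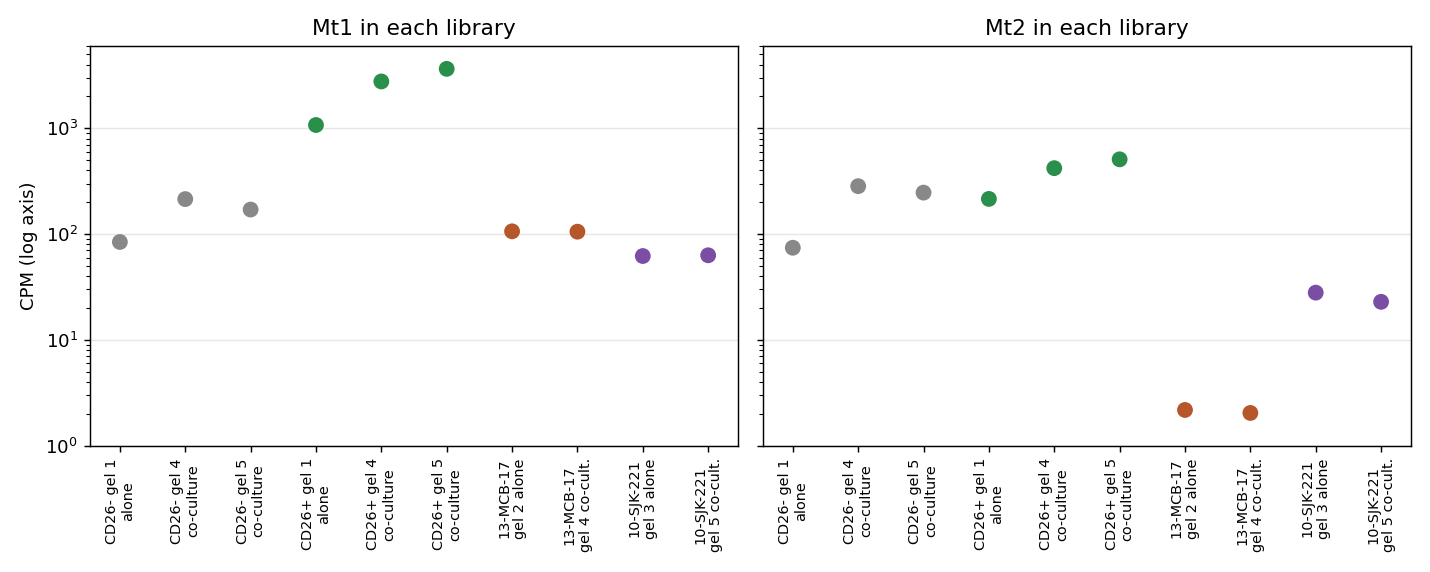
CPM of Mt1 (left) and Mt2 (right) on a log axis, 1 point for each of the 10 libraries, with CD26- NFs in gray, CD26+ NFs in green and the tumor lines in orange (13-MCB-17) and purple (10-SJK-221). The 3 CD26+ libraries reach 1073 to 3644 CPM of Mt1, above all others, and the 13-MCB-17 libraries stand near 2 CPM of Mt2.

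Per-gene counts cannot part Mt1 reads from reads of a construct that carries Mt1 sequence. Some Cre expression cassettes end in the polyadenylation region of mouse Mt1. Whether the virus given to CD26+ NFs, or the WapCre transgene of the tumor cells, does so is not given in the sources used here, so cellular Mt1 RNA and RNA of such a cassette cannot be told apart.

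Metallothionein levels in NFs were higher with tumor cells than without them, in both subsets. Against gel 1, Mt1 in CD26- NFs was 2.54-fold and 2.03-fold higher in gels 4 and 5, and in CD26+ NFs 2.58-fold and 3.40-fold higher. Mt2 was 3.82-fold and 3.32-fold higher in CD26- NFs, and 1.95-fold and 2.37-fold higher in CD26+ NFs. The fitted log2 difference of co-cultured NFs against NFs alone was 1.43 (SE 0.192) for Mt1 and 1.50 (SE 0.198) for Mt2.

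Cell type markers differed with culture and with subset in the same NF libraries. The summed level of the 8 fibroblast markers was 74846 CPM in CD26- and 69497 CPM in CD26+ NFs alone, and 23317 to 41536 CPM in co-culture. That of 8 immune markers was 11.6 and 14.1 CPM alone and 32.6 to 65.2 CPM in co-culture, mostly Cd68 and Csf1r, while Ptprc (CD45), which defines leukocytes, had at most 1 count in any NF library and Adgre1 had 0. Summed over 5 endothelial markers, NFs alone held 4.60 and 9.76 CPM and co-cultured NFs 8.06 to 24.4 CPM. Summed over 4 adipocyte markers, the levels were 2.11 and 7.09 CPM alone and 0.707 to 1.28 CPM in co-culture. Within each gel, CD26+ NFs held the lower fibroblast sum and the higher immune and endothelial sums. Fibroblast sums were 37998 (CD26-) and 23317 CPM (CD26+) in gel 4, and 41536 and 29343 CPM in gel 5. Endothelial sums were 10.1 and 24.4 CPM in gel 4, and 8.06 and 14.8 CPM in gel 5. Adipocyte sums had no common order. The part of these marker differences in the metallothionein levels was not tested.

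Mt1 in tumor cells, at 105 CPM (gel 4) and 63.0 CPM (gel 5), was below each co-cultured NF library. At the estimated shares, tumor cell RNA would bring at most 2.94 CPM of Mt1 and 1.06 CPM of Mt2 into a co-cultured NF library. RNA carried from CD26+ NFs into CD26- libraries was not estimated.

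In tumor cells the metallothioneins differed by line and little by culture. Mt1 was 106 CPM in 13-MCB-17 cells alone and 105 CPM with NFs, and 62.0 and 63.0 CPM in 10-SJK-221 cells. Mt2 was 2.17 and 2.04 CPM in 13-MCB-17 cells, and 27.9 and 22.9 CPM in 10-SJK-221 cells. The lines thus stood in opposite order for the neighboring genes, with Mt1 higher in 13-MCB-17 and Mt2 12.9-fold (alone) and 11.2-fold (co-culture) higher in 10-SJK-221. The fitted log2 difference of 10-SJK-221 against 13-MCB-17 was -0.83 (SE 0.0974) for Mt1 and 3.51 (SE 0.194) for Mt2. That of co-cultured against lone tumor cells was -0.02 (SE 0.0969) for Mt1 and -0.25 (SE 0.183) for Mt2. Summed immune markers were 302 CPM alone and 92.9 CPM in co-culture in 13-MCB-17 libraries, and 101 and 48.3 CPM in 10-SJK-221 libraries. Summed epithelial markers were 3454 and 3600 CPM, and 4718 and 4427 CPM. The part of these shifts in other tumor cell levels was not tested.

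By group, Mt1 was 3207 ± 618 CPM in co-cultured CD26+ NFs (SD, n = 2), 1073 CPM in CD26+ NFs alone (n = 1) and 192 ± 30.8 CPM in co-cultured CD26- NFs (SD, n = 2). The lowest groups were CD26- NFs alone (84.1 CPM, n = 1), co-cultured tumor cells (84.1 ± 29.9 CPM, SD, n = 2) and tumor cells alone (84.0 ± 31.2 CPM, SD, n = 2). Each tumor mean averages unlike lines, its SD is the gap between them, and CD26- NFs alone have no SD. These groups were therefore not ranked. For Mt2 the order ran from co-cultured CD26+ NFs (464 ± 62.8 CPM, SD, n = 2) through co-cultured CD26- NFs (265 ± 26.3 CPM, SD, n = 2), CD26+ NFs alone (215 CPM) and CD26- NFs alone (74.2 CPM) to tumor cells alone (15.1 ± 18.2 CPM, SD, n = 2) and in co-culture (12.5 ± 14.7 CPM, SD, n = 2). Both tumor groups overlapped for Mt2, since their spread was that between the lines.

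Against tumor cells of the same gels, NFs had a fitted log2 difference of 4.47 (SE 1.40) for Mt1 and 5.07 (SE 0.891) for Mt2. Between NFs alone and tumor cells alone it was 2.89 (SE 1.07) for Mt1 and 3.43 (SE 1.10) for Mt2. The Mt1 value rested on the CD26+ library, and without it the log2 difference was 0.24. That of Mt2 varied with the tumor line, as it was 6.12 without 10-SJK-221 and 2.51 without 13-MCB-17 cells alone, and 7.57 without gel 5 and 4.31 without gel 4 in shared gels. For Mt2 the lowest NF library (74.2 CPM) lay above the highest tumor library (27.9 CPM).

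The balance of the metallothioneins set the cell populations apart within a library. In CD26- NFs the ratio of Mt1 to Mt2 CPM was 1.13, 0.755 and 0.692 in gels 1, 4 and 5. In CD26+ NFs it was 4.99, 6.60 and 7.17. In tumor cells it was 48.8 and 51.7 for 13-MCB-17 and 2.22 and 2.75 for 10-SJK-221, alone and in co-culture. The 4 populations did not overlap, and within each the ratio moved by at most 1.64-fold. Per length, over the 3-exon transcripts of Mt1 (549 bases) and Mt2 (511 bases), the ratio in gel 1 was 1.06 in CD26- NFs and 4.65 in CD26+ NFs. Over the union of all annotated exons, a length tried after seeing the data that counts the retained introns of Mt1, it was 0.535 and 2.36, so which gene is higher in CD26- NFs of gel 1 depends on the length used. Of the exon bases of Mt2, 73.5% overlap Gm45774 on the opposite strand, which had 1 to 21 counts per library. Whether strand was used in counting is not given in the sources used here, so Mt2 reads may have been lost to that overlap, and the share lost in each library was not measured.

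**Figure D2:**
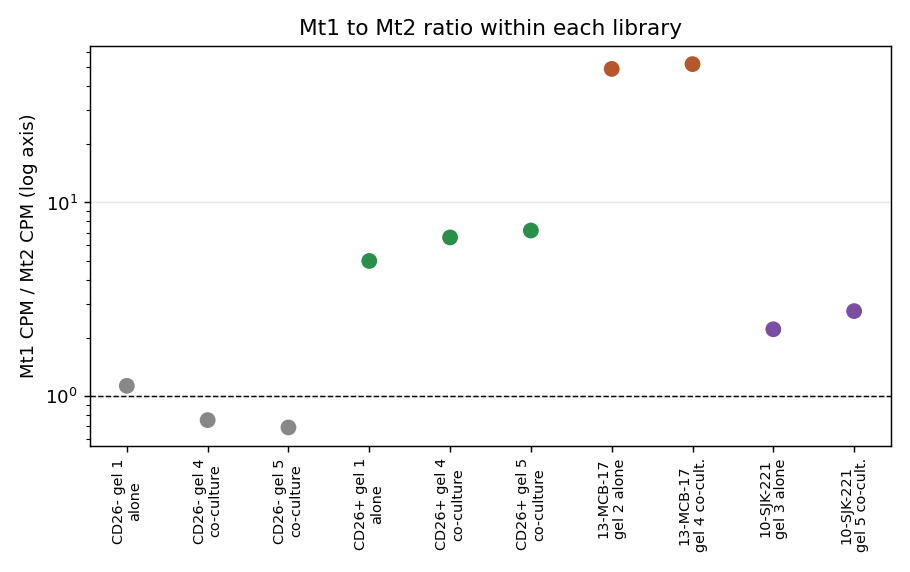
Mt1 CPM divided by Mt2 CPM on a log axis, 1 point for each of the 10 libraries, with the dashed line at equal CPM and colors as in the plot of metallothionein levels. CD26- NFs lie at 0.692 to 1.13, 10-SJK-221 at 2.22 and 2.75, CD26+ NFs at 4.99 to 7.17, and 13-MCB-17 at 48.8 and 51.7.

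Mtf1, the factor that acts on metallothionein promoters, ranged from 20.7 to 34.8 CPM over the 10 libraries. It was 23.2, 24.5 and 20.7 CPM in CD26- NFs (gels 1, 4 and 5), and CD26+ NFs held 22.5, 27.8 and 24.2 CPM. Tumor cells alone had 34.8 CPM (13-MCB-17) and 34.4 CPM (10-SJK-221), and with NFs 24.9 and 30.4 CPM. The subsets overlapped, and the fitted log2 difference between them was -0.03 (SE 0.138), against 3.78 for Mt1. By CPM, Mtf1 was higher in CD26+ NFs of gels 4 and 5, but on TMM-scaled CPM it was lower in gel 4 (26.9 against 27.2 CPM). The tumor lines were both lower in co-culture, with a log2 difference of -0.36 (SE 0.136), while that of co-cultured NFs against NFs alone was 0.13 (SE 0.147). RNA levels say nothing of the activity of Mtf1, which zinc sets on the protein.

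Slc30a1 exports zinc across the plasma membrane. It was 32.8, 26.7 and 24 CPM in CD26- NFs (gels 1, 4 and 5), and CD26+ NFs held 38.9, 38.0 and 37.3 CPM. All CD26+ libraries lay above all CD26- libraries, and the within-gel fold was 1.19, 1.42 and 1.55. The fitted log2 difference was 0.31 (SE 0.127), far smaller than that of Mt1 or Mt2. Unlike the metallothioneins, Slc30a1 was not higher in co-cultured NFs, at a log2 difference of -0.16 (SE 0.134). In 13-MCB-17 cells it was 26.0 CPM alone and 21.4 CPM with NFs, and in 10-SJK-221 cells 34.4 and 49.9 CPM, so the lines moved in opposite directions. The log2 difference between the lines was 0.74 (SE 0.192).

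Slc39a10 brings zinc into the cell. It was 47.3, 77.3 and 85.9 CPM in CD26- NFs (gels 1, 4 and 5), and CD26+ NFs held 42.8, 87.2 and 56.8 CPM. All 4 co-cultured NF libraries lay above both libraries of NFs alone, with a fitted log2 difference of 0.82 (SE 0.178). The subsets overlapped, and CD26+ NFs were lower in gels 1 and 5 and, by CPM, higher in gel 4, where TMM-scaled CPM turned the order (84.2 against 85.8 CPM). The fitted log2 difference between the subsets was -0.33 (SE 0.161). Tumor cells held 79.5 to 88.3 CPM in all 4 libraries, above NFs alone.

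**Figure D3:**
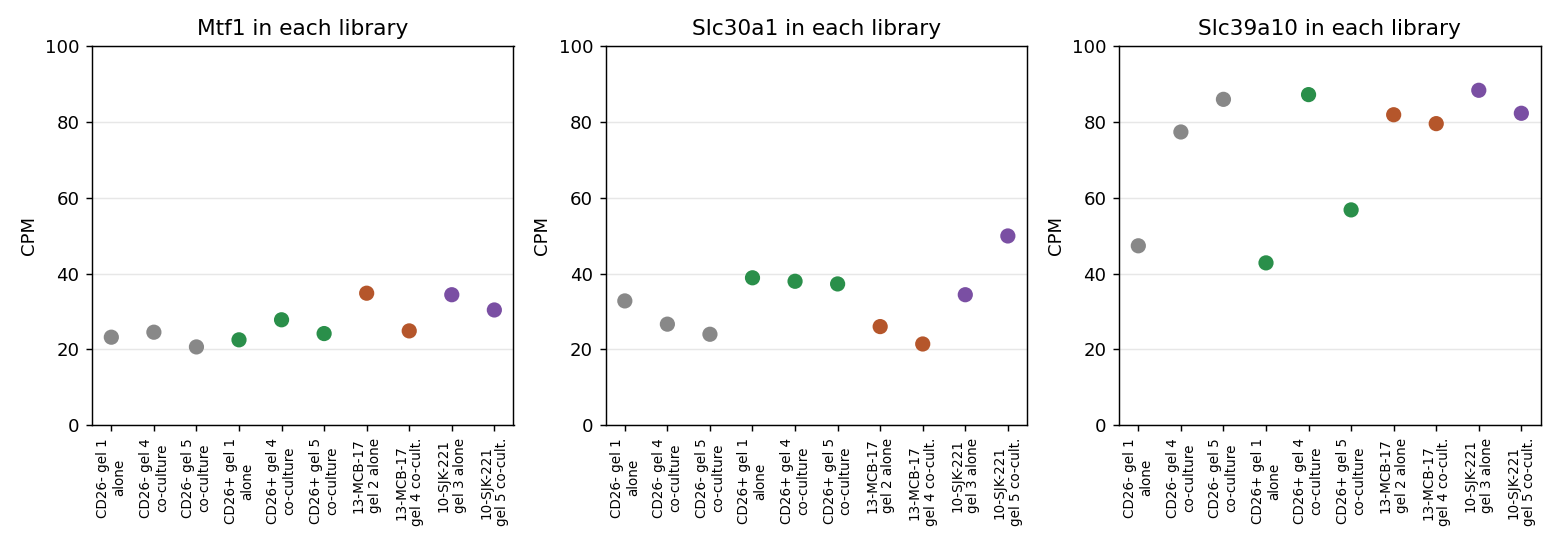
CPM of Mtf1, Slc30a1 and Slc39a10 on linear axes from 0, 1 point for each of the 10 libraries, with colors as in the plot of metallothionein levels. Mtf1 stays between 20.7 and 34.8 CPM, Slc30a1 is higher in CD26+ than in CD26- NFs of each gel, and Slc39a10 is lowest in the NFs alone at 42.8 and 47.3 CPM.

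Further genes of zinc handling were read from a list of 24 (Mt3, Mt4, and the remaining Slc30a and Slc39a transporters), fitted within the table of all genes by edgeR's quasi-likelihood test. A gene passed the test, or was called, at a Benjamini-Hochberg adjusted p under 0.05. Between the subsets, 1 of 18 tested list genes passed, against 7.53% of all genes tested, and the median log2 difference was -0.05, against 0.00 for all genes. That gene was Slc39a14, an importer of zinc, iron and manganese, which was lower in CD26+ NFs. It was 523, 287 and 358 CPM in CD26- NFs (gels 1, 4 and 5) and 305, 224 and 271 CPM in CD26+ NFs, lower within each gel. The log2 difference was -0.67 (SE 0.160, adjusted p = 0.0362). Without gel 1 or without gel 5 it no longer passed (adjusted p up to 0.220).

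With co-culture, the share of list genes that passed in NFs was near that of all genes. In NFs 10 of 18 tested genes passed, 8 higher and 2 lower, against 48.8% of all genes, and the median log2 difference was 0.14, against 0.02 for all genes. Mt3, a metallothionein best known from the brain, had 0 counts in both NF libraries alone. With tumor cells it reached 3.94 (gel 4) and 2.42 CPM (gel 5) in the CD26- subset, and 5.59 (gel 4) and 9.12 CPM (gel 5) in the CD26+ subset, at least 25.0-fold higher on average than the 3-count floor of NFs alone (adjusted p = 6.96e-05). Tumor cells had 0 counts of Mt3 in both co-cultures.

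Slc39a6, a zinc importer, was 79.9 CPM in CD26- and 86.1 CPM in CD26+ NFs alone, and 186 to 257 CPM in the 4 co-cultured NF libraries. It was higher in co-culture by a log2 difference of 1.48 (SE 0.134, adjusted p = 2.21e-05). Slc30a9 was 61.5 and 71.7 CPM in NFs alone, against 126 to 141 CPM in co-culture (log2 difference 1.05, SE 0.127, adjusted p = 0.000139). All co-cultured NF libraries lay above both libraries of NFs alone for both genes. Slc30a10, an exporter of manganese and zinc, had at most 1 count in either NF library alone, against 1.48 to 3.73 CPM in co-culture, at least 10.7-fold higher (adjusted p = 0.000681). Slc39a4, the importer of dietary zinc, was 0.0621 and 0.491 CPM in NFs alone, against 1.38 to 3.92 CPM in co-culture (adjusted p = 0.00133). At the estimated tumor shares, tumor cell RNA would bring at most 0.227 CPM of Slc39a4 and 0.0529 CPM of Slc30a10 into these libraries.

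The genes that were lower in co-cultured NFs were Slc39a1, a widely expressed zinc importer, and Slc39a14. Slc39a1 was 246 and 230 CPM in CD26- and CD26+ NFs alone, against 153 to 190 CPM in co-culture (log2 difference -0.48, SE 0.133, adjusted p = 0.0144). For Slc39a14 the log2 difference was -0.45 (SE 0.166, adjusted p = 0.0454). Without gel 4 neither passed (adjusted p = 0.0570 for Slc39a1 and 0.183 for Slc39a14), and without the filter on low counts Slc39a14 was at 0.0506.

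**Figure D4:**
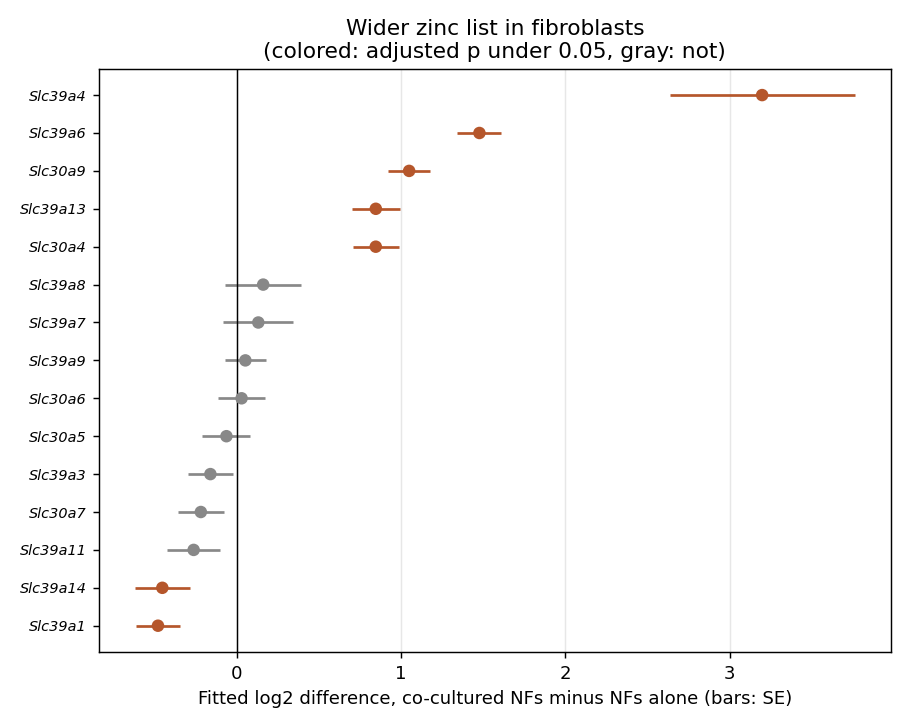
Fitted log2 difference of co-cultured NFs minus NFs alone for 15 genes of the zinc list, with bars for the SE, colored where the adjusted p was under 0.05. Mt3, Slc30a10 and Slc39a2 are left out because NFs alone held at most 1 count of them, and Slc39a4 and Slc39a6 lie highest of those drawn.

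In tumor cells 3 of 16 tested list genes passed on co-culture, 2 higher and 1 lower, against 22.3% of all genes, and the median was -0.04, against 0.01. Slc39a13, an importer that serves the secretory pathway, was 53.7 CPM in 13-MCB-17 and 73.7 CPM in 10-SJK-221 cells alone, and 152 and 141 CPM with NFs (log2 difference 1.19, SE 0.137, adjusted p = 0.000760). Slc39a14 rose from 211 to 318 CPM in 13-MCB-17 and from 116 to 196 CPM in 10-SJK-221 (log2 difference 0.65, SE 0.108, adjusted p = 0.00392). Fibroblast RNA would bring at most 0.190 CPM of Slc39a13 and 0.409 CPM of Slc39a14 into these libraries. The gene that was lower, Mt4, stood at 0.171 to 1.65 CPM (log2 difference -2.87, SE 0.554, adjusted p = 0.00760), and it did not pass under DESeq2 (adjusted p = 0.116).

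Between the tumor lines 2 of 16 tested list genes passed, both lower in 10-SJK-221, against 14.5% of all genes, with a median of -0.09, against 0.00. They were Slc39a14 (log2 difference -0.86, SE 0.108, adjusted p = 0.00161) and Slc30a6, an exporter into the Golgi (-0.77, SE 0.159, adjusted p = 0.0144). Slc30a6 was 18.4 and 17.5 CPM in 13-MCB-17 cells, alone and with NFs, and 11.2 and 10.9 CPM in 10-SJK-221 cells. Under DESeq2 Slc30a6 did not pass (adjusted p = 0.119).

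NFs and tumor cells were compared alone and within shared gels. Of 17 tested genes 11 passed between NFs alone and tumor cells alone, 6 higher and 5 lower in NFs, against 47.2% of all genes, with a median of 0.62, against 0.05. Within the shared gels 8 of 18 passed, 7 higher and 1 lower in NFs, against 52.5% of all genes, with a median of 0.56, against 0.04. The gene that was lower, the importer Slc39a4, lay at the threshold (adjusted p = 0.0494) and passed under 1 of 6 alternatives, DESeq2. Slc39a8, an importer of zinc and manganese, had 0 counts in all 4 tumor libraries. It was 19.4, 15.9 and 13.9 CPM in CD26- NFs (gels 1, 4 and 5), with CD26+ NFs at 12.4, 21.9 and 17.5 CPM, at least 83.1-fold over lone and at least 101-fold over co-cultured tumor cells. Slc39a1 was 153 to 246 CPM in NFs and 60.9 to 70.7 CPM in tumor cells, with no overlap (log2 difference 2.02, SE 0.215, alone, and 1.54, SE 0.146, in shared gels). Slc39a6 was higher in co-cultured NFs than in tumor cells of the same gels (log2 difference 2.18, SE 0.151, adjusted p = 1.48e-05). Slc39a9, an importer, was 73.5 to 88.3 CPM in NFs and 44.5 to 49.9 CPM in tumor cells (adjusted p = 0.0113 alone and 0.000603 in shared gels), but did not pass in shared gels without gel 4 (adjusted p = 0.0640) or, alone, without the CD26- or the 10-SJK-221 library (adjusted p up to 0.0674). Slc30a7, an exporter into the Golgi, was at 120 CPM in CD26- and 87.4 CPM in CD26+ NFs of gel 1, against 61.5 and 61.6 CPM in the lone tumor lines (adjusted p = 0.0242), and passed under 3 of 7 alternatives.

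Slc30a4, which moves zinc into vesicles and is needed for zinc in milk, was lower in NFs alone than in tumor cells alone (log2 difference -1.36, SE 0.242, adjusted p = 0.00642). It was 82.8 and 66.0 CPM in CD26- and CD26+ NFs alone and 232 and 196 CPM in 13-MCB-17 and 10-SJK-221 cells alone. Slc30a8, the transporter of insulin granules, had 0 counts in all 10 libraries.

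**Figure D5:**
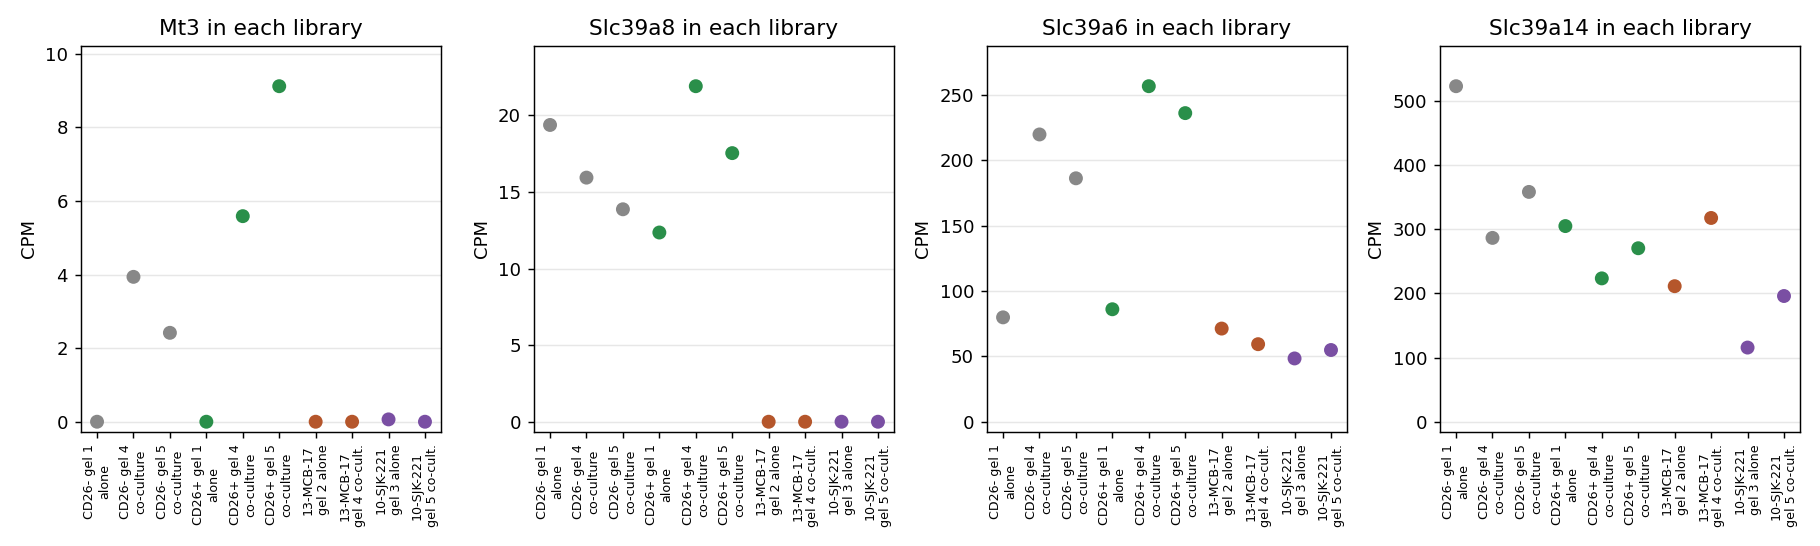
CPM of Mt3, Slc39a8, Slc39a6 and Slc39a14 on linear axes, 1 point for each of the 10 libraries, with colors as in the plot of metallothionein levels and a separate scale for each gene. Mt3 is at 0 counts in NFs alone and at 2.42 to 9.12 CPM in co-cultured NFs, Slc39a8 is at 0 counts in tumor cells, and Slc39a14 is lower in CD26+ than in CD26- NFs of each gel.

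Genes that answer other known inducers of metallothioneins were read from 2 lists. Any link from these genes to the metallothionein levels was not tested. Of 6 metal and oxidative stress genes, 5 passed in co-cultured NFs against NFs alone, all higher, where 48.8% of all genes passed. Slc7a11, the cystine importer, was 19.2 and 15.0 CPM in CD26- and CD26+ NFs alone and 101 to 144 CPM in co-culture (log2 difference 2.98, SE 0.185, adjusted p = 2.33e-06). Txnrd1 (thioredoxin reductase) was higher by 1.47 (SE 0.149), Hmox1 (heme oxygenase) by 1.26 (SE 0.192) and the heat shock gene Hspa1a by 0.74 (SE 0.171) on the log2 scale. The gene that did not pass was Hspa1b, another heat shock gene. Stretches shared by Hspa1a and Hspa1b were not searched for, so how well their reads were told apart is not known. In tumor cells 3 of the 6 passed on co-culture, where 22.3% of all genes passed, and all were lower, among them Slc7a11, which went from 782 to 54.0 CPM in 13-MCB-17 and from 196 to 46.1 CPM in 10-SJK-221 (log2 difference -3.01, SE 0.360, adjusted p = 0.000908). Another of the 3, Gclm, a subunit of the enzyme that starts glutathione synthesis, was lost under DESeq2 (adjusted p = 0.139). Between the tumor lines 3 of the 6 passed, 2 higher and 1 lower in 10-SJK-221, where 14.5% of all genes passed. Between NFs alone and tumor cells alone 4 passed, 1 higher and 3 lower in NFs (47.2% of all genes). In shared gels all 6 passed, 5 higher and 1 lower in NFs (52.5% of all genes). Between the subsets 0 of 6 passed by edgeR, with 2 at an unadjusted p under 0.05, where 7.53% of all genes passed. Without gel 4, Slc7a11 passed, lower in CD26+ NFs (adjusted p = 0.0366).

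Of 7 glucocorticoid response genes, 6 were tested. In co-cultured NFs 2 of the 6 passed, where 48.8% of all genes passed, and both were lower (3 without gel 4, 1 of them higher): Per1, a clock gene (log2 difference -1.28, SE 0.124, adjusted p = 3.41e-05), and Klf9, a transcription factor (-0.54, SE 0.123, adjusted p = 0.00524). Fkbp5, a chaperone of the glucocorticoid receptor, was 22.9 and 22.7 CPM in CD26- and CD26+ NFs alone and 21.1 to 29.2 CPM in co-culture, and did not pass. Between the subsets, where 7.53% of all genes passed, Klf9 alone did, lower in CD26+ NFs (-0.46, SE 0.118, adjusted p = 0.0474), but not without the filter on low counts, with the gel as a block (adjusted p = 0.0506), or without gel 1 or 5 (adjusted p up to 0.438). In tumor cells 4 of the 6 passed on co-culture, 3 higher and 1 lower, where 22.3% of all genes passed. Fkbp5 rose from 3.69 to 15.7 CPM in 13-MCB-17 and from 8.59 to 23.5 CPM in 10-SJK-221 (log2 difference 1.72, SE 0.203, adjusted p = 0.000865). Sgk1, a kinase that acts on ion channels, was higher by 0.54 (SE 0.146, adjusted p = 0.0310), as was Per1 by 0.46 (SE 0.101, adjusted p = 0.0127), though not under DESeq2 (adjusted p = 0.0955). Klf9 was lower, with a log2 difference of -0.53 (SE 0.112, adjusted p = 0.0110). Between the tumor lines 5 of the 6 passed, 1 higher and 4 lower in 10-SJK-221, where 14.5% of all genes passed. Under RLE scaling 3 of 6 passed, and under DESeq2 1 of 7. Between NFs alone and tumor cells alone 2 of 6 passed, both higher in NFs (47.2% of all genes). In shared gels 3 of 6 passed, 1 higher and 2 lower in NFs (52.5% of all genes).

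Copper, the other metal that metallothioneins bind, was followed in 9 genes. Between the subsets 2 of 9 passed, both higher in CD26+ NFs, where 7.53% of all genes passed. Slc31a2, a copper transporter of endosomes, was 9.56, 12.3 and 12.4 CPM in CD26- NFs (gels 1, 4 and 5) and 15.1, 25.1 and 22.2 CPM in CD26+ NFs, higher in each gel (log2 difference 0.69, SE 0.150, adjusted p = 0.0285). Atox1, the copper chaperone, was 33.3, 29.9 and 23.1 CPM and 52.5, 41.6 and 46.2 CPM (log2 difference 0.55, SE 0.133, adjusted p = 0.0378). Without gel 5 neither passed (adjusted p = 0.300 for Slc31a2 and 0.412 for Atox1), nor did Slc31a2 without gel 4 or Atox1 without gel 1 or without the filter on low counts (adjusted p = 0.0886, 0.0794 and 0.0650). In co-cultured NFs 4 of 9 passed, near the 48.8% of all genes. The 3 that were higher included Atp7b, a copper-transporting ATPase, which had 3 and 4 counts in gel 1 and lay between 1.45 and 6.15 CPM in gels 4 and 5 (adjusted p = 0.000308), and the copper importer Slc31a1 (log2 difference 0.90, SE 0.138, adjusted p = 0.000605), and the 1 that was lower was Ccs, the chaperone of superoxide dismutase (-0.69, SE 0.169, adjusted p = 0.00774).

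The genes whose levels ran most like Mt1 were sought among 9333 genes with a mean of at least 10 CPM, by Pearson's r of log2(CPM + 1) over the 10 libraries, which include repeats of the same subset and line. They were Atg4a (r = 0.970), 0610012G03Rik (0.967), Tedc2 (0.962), Apba3 (0.960) and Sphk2 (0.953). Atg4a, a protease of autophagy, was 17.3, 22.7 and 21.8 CPM in CD26+ NFs and 10.4 to 13.0 CPM in the other 7 libraries, a far smaller range than that of Mt1. Most like Mt2 were Adgre5 (r = 0.985), Layn (0.978), Igfbp3 (0.974), Spata6 (0.973) and Ctsh (0.971). Igfbp3, a carrier of insulin-like growth factors, was 92.8, 124 and 181 CPM in CD26- NFs (gels 1, 4 and 5), 364, 515 and 1141 CPM in CD26+ NFs, 49.0 and 21.0 CPM in 10-SJK-221 and 0.0543 and 0.113 CPM in 13-MCB-17. By CPM both Igfbp3 and Adgre5 shared with Mt2 the order of the subsets within each gel and the order of the tumor lines. Layn, Spata6 and Ctsh were higher in CD26- NFs of at least 1 gel. Over the same libraries r was 0.691 between Mt1 and Mt2.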

How the data were processed

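Read counts for each gene in 10 libraries, deposited by the authors as a single table, were raw and not normalized. Per the labels, libraries were stranded mRNA, and the submitters' processing notes name HISAT2 2.2.1 and GRCm38. The program that counted reads, whether it used strand, and the annotation release are not given in the sources used here. Of 55486 gene IDs, 99.4% were in GENCODE M21 (GRCm38), 99.4% of these at the same position. A row without a gene ID held 0 counts. The members and gene lists were chosen with earlier results of these data known.

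CPM was computed on library totals. Log2 differences came from edgeR 4.0.16 under R 4.3.3, after TMM scaling and filtering by filterByExpr, with the quasi-likelihood test fitted to all genes and Benjamini-Hochberg adjustment at 0.05. The terms were subset and culture (6 NF libraries), line and culture (4 tumor libraries) or cell type (libraries alone, or in shared gels). Where all libraries of a group held at most 3 counts, folds were computed against 3 counts per library. Such floors allow for counting error alone, because reads are not independent molecules. The shares of tumor cell and fibroblast RNA in co-cultured libraries were estimated from 8 epithelial and 8 fibroblast markers. Scripts were tested on simulated data.

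List genes could be named where they passed with a mean of at least 1 CPM, up to 5 a direction, and not all of these are named, together with the 5 genes most like Mt1 and Mt2. Mt4, Slc30a8, and Fkbp5 in NFs were named after their values were seen. Subsets and cell types of the same number came from the same gel, so the gel pairs them. Deviations of gel 4 from gel 5 correlated across genes at r = 0.128 between the subsets and 0.102 between NFs and tumor cells. Libraries are single sorts. Both libraries of NFs alone came from gel 1, so p-values for co-culture of NFs and for NFs alone hold no spread between gels of NFs alone, and each tumor line was sequenced once per culture. Alternatives were RLE scaling, no filter, DESeq2 1.42.0, the gel as a block, each gel or library left out, and TMM-scaled CPM. The tumor fits allowed no residual degrees of freedom with 1 library left out, so this was not run.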

Additional observations from a re-analysis of the deposited data

Results flagged for a closer look

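Among the 5 members and 31 list genes that met the rule for naming, 6 had CPM on opposite sides of the lone level on co-culture in the 2 subsets or in the 2 tumor lines, each beyond counting error. These folds compare single libraries, so the spread between gels is not covered, and none of the differences was tested. On TMM-scaled CPM, tried after seeing the data, the folds of all 6 kept their side of 1, some of them close to it (1.04 for Hspa1b in 13-MCB-17). Slc30a1 was at 0.824-fold of its lone level in co-cultured 13-MCB-17 cells and at 1.45-fold in 10-SJK-221 cells. Slc39a6 was at 0.832-fold and 1.13-fold, Hmox1 at 1.14-fold and 0.772-fold, and Hspa1b at 1.07-fold and 0.921-fold, in 13-MCB-17 and 10-SJK-221 respectively. Among NFs, Slc39a8 in gels 4 and 5 was at 0.823-fold and 0.716-fold of gel 1 in CD26- cells, but at 1.77-fold and 1.42-fold in CD26+ cells. Dusp1 in gels 4 and 5 was at 1.07-fold and 1.18-fold of gel 1 in CD26- cells, and at 0.634-fold and 0.726-fold in CD26+ cells.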

How the results depend on the processing

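Under every alternative run, the fitted log2 differences of Mt1 and Mt2 kept their direction. Those of Mt1 between the subsets ran from 3.55 to 3.90 and of Mt2 from 0.65 to 1.14, and on co-culture of NFs from 1.37 to 1.48 and from 1.45 to 1.57. Mt1 between NFs alone and tumor cells alone ran from 0.24 to 3.76. Signs turned for Mtf1 between the subsets (-0.06 to 0.04), for Mtf1 (-0.15 to 0.23) and Slc30a1 (-0.43 without gel 4 to 0.74 without gel 5) between NFs and tumor cells in shared gels, and for Slc39a10 between the lines (near 0). TMM scaling changed CPM by factors of 0.900 to 1.17, which moved 31 of 50 member values beyond their counting interval. With the gel as a replicate block, 1 zinc gene was called between the subsets, as without it, and 7 instead of 8 in shared gels, where Slc39a4 was lost, as under RLE scaling, without a filter and without gel 4 or gel 5. DESeq2 called 2 zinc genes instead of 1 between the subsets, 1 instead of 2 between the lines and 2 instead of 3 in co-cultured tumor cells. With 1 gel or library left out, zinc calls ran from 0 to 3 between the subsets (0 without gel 1 or gel 5, with 3 and 1 at an unadjusted p under 0.05), 7 to 10 for co-cultured NFs, 7 to 11 for NFs alone against tumor cells alone (7 without the CD26- library or the 10-SJK-221 library) and 5 in both shared-gel fits. Fewer libraries entered those fits. Of all genes, 1130 were called between the subsets and 17 without gel 5. In tumor cells 2942 were called on co-culture against 1541 by DESeq2, and 1910 between lines against 2917 without a filter and 936 by DESeq2. In shared gels 7926 were called against 4550 and 5212 without gel 4 or gel 5. The causes were not tested. Of 394 alternative values of named list genes, 71 lost their call and 0 reversed.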
